A study of Arabidopsis thaliana with 6 samples.

Results

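CASP1 (AT2G36100) and the CASP-like genes CASPL1D2 (AT3G06390), CASPL1D1 (AT4G15610) and CASPL1E2 (AT4G15620) of *Arabidopsis thaliana* were followed in whole seedlings of 2 genotypes. These 4 genes were taken by locus from the authors' deposited table of probe sets that differed between the genotypes, where all 4 carry the description of an integral membrane family protein. They stand for 4 of the 22746 probe sets on the array and for 4 of 274 probe sets in that table. The mutant gapcp1gapcp2 (3 arrays) carries mutations in GAPCP1 and GAPCP2, which encode the plastidial glyceraldehyde-3-phosphate dehydrogenase of glycolysis, and was set against wild-type plants (3 arrays), both aged 15 days. The ecotype is Col-0, no source used here gives the alleles, and each array measured RNA of a separate biological replicate grown vertically on dilute medium at 22 °C with 16 h of light.

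The Casparian strip is a ring of lignin in the walls of the root endodermis, the cell layer around the vascular tissue, and it blocks the free passage of solutes between cells. CASP1 is one of the Casparian strip membrane domain proteins, which gather in the endodermal plasma membrane and mark the line where the wall is lignified. Dirigent-domain proteins such as ESB1 and secreted peroxidases such as PER64 act at that line. The CASP-like proteins share the membrane domain of the CASPs and are made in many tissues, and no role is assigned here to the 3 that were measured.

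The RefSeq gene table of the TAIR10.1 assembly names 39 genes of the family, 5 CASPs and 34 CASP-like genes. Of the 5 CASPs, CASP1 could be tied to a probe set, and of the 10 genes of the CASPL1 group, CASPL1D1, CASPL1D2 and CASPL1E2 could. The other 35 genes had no named probe set and were not analysed here, so no statement covers the family as a whole. CASP1 lies on chromosome 2 and CASPL1D2 on chromosome 3. CASPL1D1 and CASPL1E2 are next to each other on chromosome 4, with no annotated gene between them, and CASPL1E1 (AT4G15630) follows CASPL1E2. RefSeq lists 2 transcripts for CASPL1D1 and 1 for each of the others, and the gene spans are 1209 bases for CASP1, 1519 for CASPL1D2, 2183 for CASPL1D1 and 2011 for CASPL1E2. Each of the 4 genes is measured by 1 probe set that is not marked as shared between transcripts, and binding of RNA from other family members, such as CASPL1E1 for CASPL1E2, was not tested.

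Of the 4 transcripts, 3 were dimmer in gapcp1gapcp2 seedlings than in wild type and 1 was brighter. CASPL1D2 had the lowest mutant intensity relative to wild type, 14.1%, a value that rests on a dim mutant signal. CASP1 stood at 34.0% and CASPL1D1 at 41.7%. CASPL1E2 went the other way and stood at 275% of wild type. The genes were selected from a table filtered on the same contrast, so these differences are described and not tested. The filter of the authors' deposited table asked for a fold over 2, and the authors' deposited table gives a fold of 6.71 for CASPL1D2, 2.95 for CASP1 and 2.51 for CASPL1D1 (wild type over mutant) and of 2.74 for CASPL1E2 (mutant over wild type). CASPL1D1 was nearest to that limit, and no family member just outside it could be named. For CASP1, fewer endodermal cells and less RNA per cell cannot be told apart in whole seedlings. Which cells gave the signal of the 3 CASP-like genes was not tested.

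**Figure D1:**
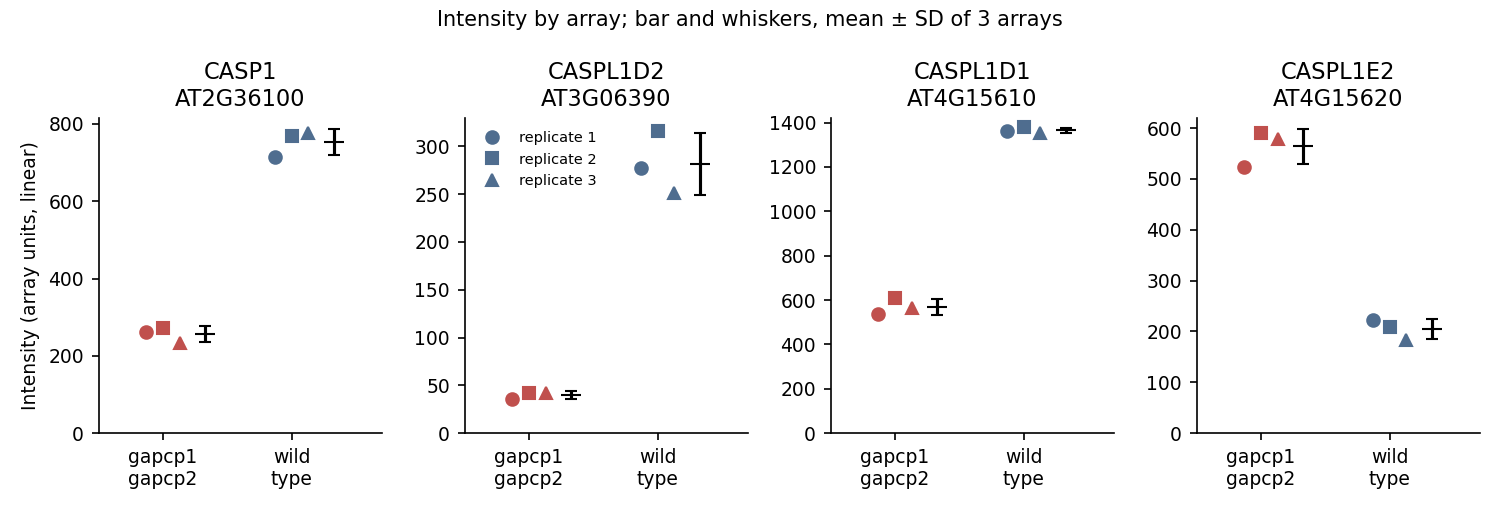
Intensity of the 4 transcripts on each array (linear scale starting at 0), with gapcp1gapcp2 left of wild type in each panel and the mean ± SD of 3 arrays beside the points. The 3 mutant arrays lie below all wild-type arrays for CASP1, CASPL1D2 and CASPL1D1, as for 16.6% of all probe sets. They lie above them for CASPL1E2, as for 15.5% of all probe sets. The authors' filter on this contrast had made such gaps likely.

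CASP1 had intensities of 263, 273 and 233 in gapcp1gapcp2 replicates 1 to 3, against 714, 769 and 777 in wild type replicates 1 to 3. All mutant arrays were low and all wild-type arrays high, with a gap of 440 intensity units between the highest mutant and the lowest wild-type array. The mean was 256 ± 21.0 in the mutant and 753 ± 34.3 in wild type (SD, n = 3 each). On the log2(intensity + 16) scale used for every log2 change here, the change of CASP1 was -1.50 ± 0.08 (SE). The added 16 keeps dim values stable and makes the change of a dim transcript look smaller than it is.

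CASPL1D2 had intensities of 35.3, 42.5 and 41.5 in gapcp1gapcp2 replicates 1 to 3, against 277, 316 and 251 in wild type. The groups were far apart, and the mutant values lay below the median of every array, which ranged from 111 to 117. The mean was 39.8 ± 3.91 in the mutant and 281 ± 32.4 in wild type (SD, n = 3 each), and the log2 change was -2.41 ± 0.10 (SE). No detection calls were used here, so whether the mutant signal exceeds background is unknown and the size of the difference is uncertain. It also depends on the added constant, and the log2 change was -1.73 with 64 added and -2.79 with 1 added. Among all 22746 probe sets, 4 had a lower log2 change with 16 added.

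CASPL1D1 had intensities of 537, 608 and 563 in gapcp1gapcp2 replicates 1 to 3, against 1361, 1378 and 1353 in wild type. The wild-type arrays were nearly equal, with a coefficient of variation of 0.915%, and the mutant arrays varied more, at 6.29%. The mean was 569 ± 35.8 in the mutant and 1364 ± 12.5 in wild type (SD, n = 3 each), and the log2 change was -1.24 ± 0.07 (SE). Of the 3 dimmer transcripts it had the smallest log2 change, and 745 units separated its highest mutant from its lowest wild-type array.

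CASPL1E2 had intensities of 524, 589 and 578 in gapcp1gapcp2 replicates 1 to 3, against 223, 209 and 184 in wild type. Every mutant array was brighter than every wild-type array, by at least 302 units. The mean was 564 ± 34.8 in the mutant and 205 ± 19.6 in wild type (SD, n = 3 each), and the log2 change was 1.39 ± 0.09 (SE). Of all probe sets, 110 had a higher log2 change. The neighbours CASPL1D1 and CASPL1E2 thus lay on opposite sides of wild type on the same arrays, and the log2 change of CASPL1D1 minus that of CASPL1E2 was -2.63 ± 0.08 (SE, n = 3 arrays per genotype).

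The 3 dimmer transcripts also differed among themselves in the size of the change. The log2 change of CASPL1D2 minus that of CASPL1D1, genes of the same CASPL1D pair, was -1.17 ± 0.09 (SE). That of CASP1 minus CASPL1D2 was 0.91 ± 0.14, and that of CASP1 minus CASPL1D1 was -0.26 ± 0.08. The position of CASPL1D2 as the lowest of the 3 was kept with 1 or 64 added. The distance between CASP1 and CASPL1D2 was smaller with 64, where their log2 changes were -1.35 and -1.73. That between CASP1 and CASPL1D1 was also smaller with 64, where CASPL1D1 stood at -1.17. The bounds that the authors' deposited table gives for the fold overlapped for CASP1 (2.61 to 3.35) and CASPL1D1 (2.13 to 2.94), so their order is uncertain. Over the whole array, 52 probe sets had a lower log2 change than CASP1, with CASPL1D2 among them, and 100 had a lower one than CASPL1D1, with both other genes among them.

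**Figure D2:**
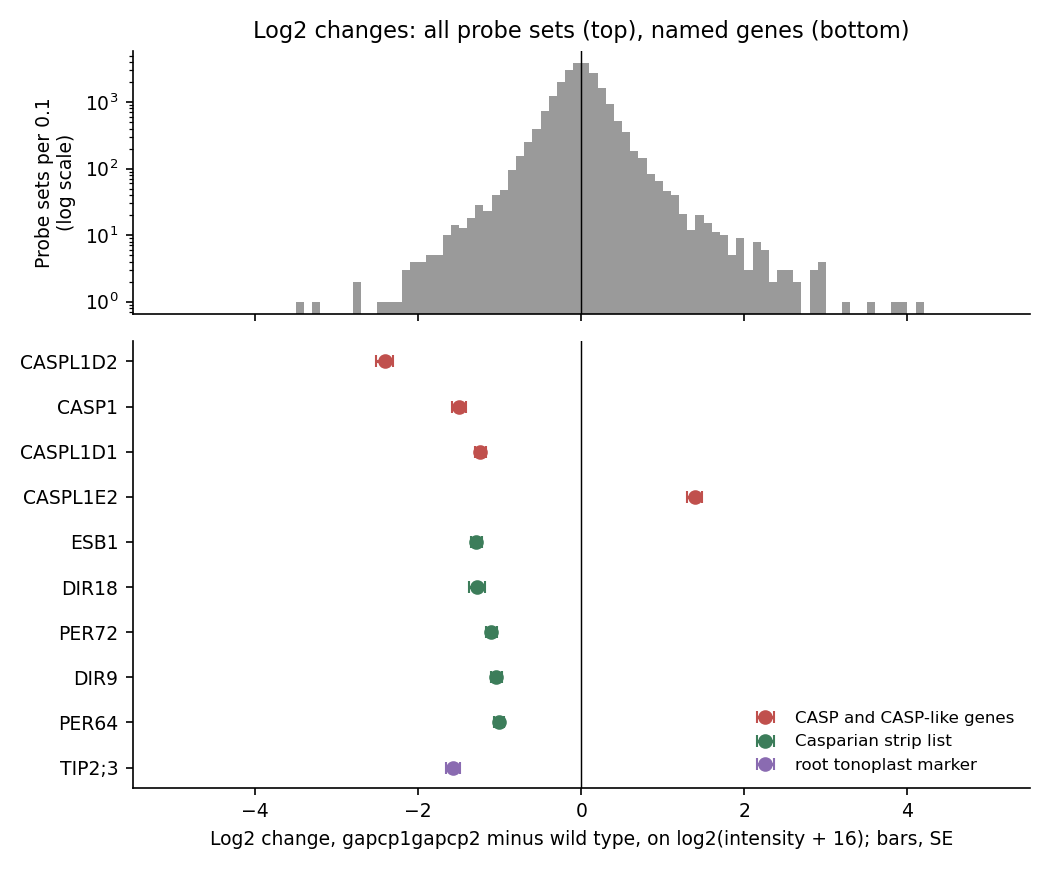
Log2 changes, gapcp1gapcp2 minus wild type, on the log2(intensity + 16) scale. The top panel counts all 22746 probe sets in bins of 0.1 (log scale), and the bottom panel gives the 4 CASP and CASP-like genes, the 5 genes of the barrier list that could be named and the root marker TIP2;3 with their SE. CASPL1E2 is the only named gene in the panel to the right of 0.

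In a limma fit over all probe sets with Benjamini-Hochberg adjustment, an adjusted p under 0.05 was reached by 11.0% of probe sets, 5.13% in the lower direction and 5.86% in the higher direction. All 4 genes were called, CASP1, CASPL1D2 and CASPL1D1 as lower and CASPL1E2 as higher, which their choice had fixed, so nothing is read from that count. The mutant arrays all lay below the wild-type arrays for 16.6% of probe sets and all above for 15.5%. For the 4 genes the authors' filter on this contrast had made such a gap likely, so nothing is read from it. The shares of calls changed when 1 array was left out. The fit called 1167 probe sets lower and 1334 higher. These counts were 617 and 805 without wild type replicate 2, 570 and 620 without gapcp1gapcp2 replicate 2, and 560 and 637 without gapcp1gapcp2 replicate 3. They were 985 and 1362 without gapcp1gapcp2 replicate 1, 801 and 937 without wild type replicate 1, and 904 and 960 without wild type replicate 3. Each of these fits also had fewer arrays, which by itself lowers the power to call. The median log2 change over all probe sets was -0.02, but the array medians were nearly equal and how the authors scaled the arrays is not stated, so a shift shared by the whole array would not be visible in that value.

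Within each genotype, the transcripts varied far less than between genotypes. The authors' filter on this contrast had made this likely for the 4 genes, so nothing is read from it. The largest deviation of any array from its genotype mean was 0.16 on the log2 scale, for CASPL1D2 in wild type replicate 2, against a smallest change between genotypes of -1.24 for CASPL1D1. In gapcp1gapcp2 replicate 1 the 3 CASP-like transcripts were all low, by -0.12 for CASPL1D2, -0.08 for CASPL1D1 and -0.10 for CASPL1E2, and CASP1 was 0.04 above its mean. In gapcp1gapcp2 replicate 2 all 4 transcripts lay above their mutant mean, by 0.06 to 0.09. In gapcp1gapcp2 replicate 3, CASP1 was 0.13 below its mean, and CASPL1D2 and CASPL1E2 were 0.05 and 0.04 above theirs. In wild type replicate 3, CASPL1D2 and CASPL1E2 were both low, by -0.15 and -0.14, while CASP1 was 0.04 above its mean. The deviations were not centred by array. The median intensity of gapcp1gapcp2 replicate 1 was 111, against 117 in gapcp1gapcp2 replicates 2 and 3. That of wild type replicate 3 was 113, against 114 and 116 in wild type replicates 1 and 2. The part of the array level in the deviations was not tested. CASPL1D2 and CASPL1E2, which differed between the genotypes in opposite directions, deviated with the same sign on 5 of the 6 arrays. CASPL1D2 and CASPL1D1 did so as often. Deviations within a genotype are tied to their mean, so their signs are not independent and nothing is read from these counts.

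**Figure D3:**
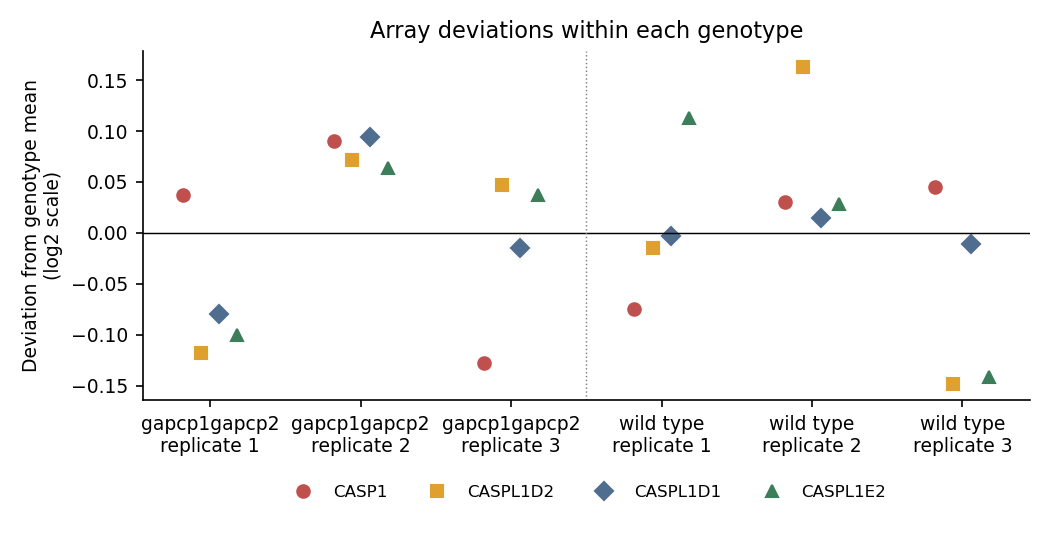
Deviation of each array from the mean of its genotype for the 4 transcripts (log2 scale), gapcp1gapcp2 arrays left and wild-type arrays right. Deviations stay within 0.16 of 0, and all 4 transcripts are above their mean in gapcp1gapcp2 replicate 2.

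Other genes that build or seal the endodermal barrier were looked up in a list of 40 genes of the Casparian strip and of suberin, the waxy polymer laid down later on endodermal cells. A named probe set existed for 5 of the 40, and all 5 were dimmer in gapcp1gapcp2, with a median log2 change of -1.10. All 5 had an adjusted p under 0.05 in the limma fit, where 5.13% of all probe sets were called lower. These 5 could be named only because they passed the authors' filter on the same contrast, which asked for a minimum fold. Their calls and a large median change were fixed by that choice, so nothing is read from the size of the median. The count of these 5 is no independent evidence of a direction. Among the 256 unshared probe sets of the authors' deposited table, from which they had to come, 99 were lower and 157 were higher in the mutant. The other 35 genes of the list, among them the suberin enzymes and MYB36, the transcription factor that switches on CASP1, were not analysed here.

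ESB1 (AT2G28670), a dirigent-domain protein needed for an unbroken strip, had intensities of 177, 175 and 176 in gapcp1gapcp2, against 483, 445 and 435 in wild type replicates 1 to 3. The mutant arrays were almost identical, and the log2 change was -1.29 ± 0.07 (SE), close to that of CASPL1D1. The dirigent-domain genes DIR18 (AT4G13580) and DIR9 (AT2G39430) had log2 changes of -1.28 ± 0.10 and -1.04 ± 0.07 (SE). DIR18 averaged 198 ± 24.7 in the mutant and 503 ± 15.1 in wild type, and DIR9 averaged 83.2 ± 1.37 in the mutant and 189 ± 12.9 in wild type (SD, n = 3 each).

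PER64 (AT5G42180), a peroxidase that takes part in lignification of the strip, had intensities of 140.1, 134 and 139 in gapcp1gapcp2, against 293, 299 and 291 in wild type. Its log2 change of -1.01 ± 0.06 (SE) was the smallest of the 5. PER72 (AT5G66390), another class III peroxidase, averaged 198 ± 7.30 in the mutant and 445 ± 19.1 in wild type (SD, n = 3 each), with a log2 change of -1.10 ± 0.07 (SE). For all 5 genes every mutant array lay below every wild-type array, as for 16.6% of all probe sets. The authors' filter on this contrast had made such a gap likely for these 5, so nothing is read from that count.

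Markers of root and leaf cell types were checked beside these values. Of 9 endodermis markers, CASP1, ESB1 and PER64 could be named, and their summed intensity ranged from 548 to 583 in the mutant arrays and from 1490 to 1513 in the wild-type arrays. CASP1 itself is part of that sum, and ESB1 and PER64 are the genes of the barrier list above. Of 24 markers of other cell types (root cortex, root hair, root stele and tonoplast, root cap, leaf mesophyll and guard cell), 1 could be named, the tonoplast water channel gene TIP2;3. TIP2;3 had intensities of 98.0, 118 and 105 in gapcp1gapcp2, against 359, 354 and 335 in wild type, and its log2 change of -1.57 ± 0.08 (SE) lay beside that of CASP1. All 4 of these markers could be named only through the authors' filter on this contrast, so a difference in each was bound to be seen, and they are no separate check of the label. The part of the root share of the seedlings in these values was not tested, and neither root nor leaf mass is given. The probe sets of GAPCP1 and GAPCP2 were not named in the files used here, so the targeted genes did not serve as a check of the genotype labels.

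Over the 6 arrays, log2 intensities of CASP1, CASPL1D2 and CASPL1D1 followed each other, with a Pearson r of 0.990 between CASP1 and CASPL1D2, 0.994 between CASP1 and CASPL1D1, and 0.997 between CASPL1D2 and CASPL1D1. CASPL1E2 ran opposite, with r of -0.992, -0.979 and -0.983 to CASP1, CASPL1D2 and CASPL1D1. These values describe 6 arrays that share the same genotype difference. An r of at least 0.99 was reached with CASP1 by 102 probe sets and with CASPL1D2, CASPL1D1 and CASPL1E2 by 144, 143 and 155.

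The named genes most like each transcript by this r over the 6 arrays, 3 for each, all had an r of at least 0.998. For CASP1 they were PER72, the iron-sulfur protein gene NEET (AT5G51720) and the heat shock factor gene HSFA7A (AT3G51910), with log2 changes of -1.10, -1.26 and -1.49. For CASPL1D2 they were the major latex protein gene MLP329 (AT2G01530), HIR2 (AT3G01290) and the vacuolar iron transporter-like gene VTL5 (AT3G25190), with log2 changes of -2.09, -1.06 and -2.18. For CASPL1D1 they were the arabinogalactan protein gene AGP13 (AT4G26320), TIP2;3 and AT1G12080, with log2 changes of -1.97, -1.57 and -1.91. For CASPL1E2 they were the putative polygalacturonase gene AT5G14650, the sucrose synthase gene SUS4 (AT3G43190) and the cellulose synthase-like gene CSLG3 (AT4G23990), with log2 changes of 1.13, 1.62 and 1.96. PER72 was also on the barrier list, and TIP2;3 was also among the cell type markers. The genes of all these lists were named through the same filter on this contrast, so nothing is read from the overlap.

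The sizes of the 4 changes were compared over the processing settings. Normalising the arrays by quantiles or medians and weighting the arrays moved none of the 4 log2 changes by more than the spread between replicates. Leaving out any 1 array also moved none further. With 3 arrays per group it could not, so nothing is read from that. The added constant was the setting that mattered, and most for CASPL1D2, whose fold moved by a factor of 1.60 with 64 added. With no constant, the mean intensity of wild type was 7.07 times the dim mutant mean for CASPL1D2. It was 2.94 times that of the mutant for CASP1 and 2.40 times for CASPL1D1, and the mutant mean of CASPL1E2 was 2.75 times that of wild type.

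**Figure D4:**
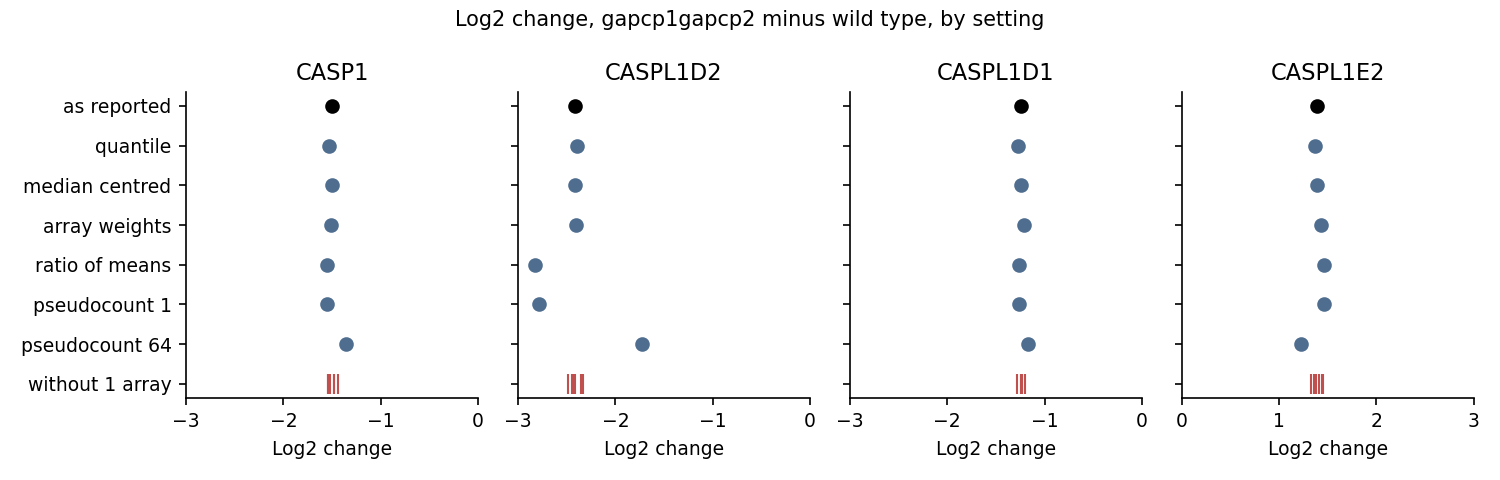
Log2 change, gapcp1gapcp2 minus wild type, of each transcript as reported and under other settings, with red ticks for the 6 values that leave out 1 array each. CASPL1D2 ranges from -2.82 to -1.73, and the other 3 stay close to the reported value.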

How the data were processed

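RNA of whole seedlings was measured on 6 one-colour arrays, grouped by genotype from the sample titles. Their description fields, which name embryo stages, were left aside. The authors deposited linear intensity values, one for each probe set on each array. Per the submitters' processing notes GCOS was used. Its version, the scaling and any detection calls are not stated in the sources used here. The authors' deposited table pairs 274 probe sets with loci. Per the file headers, it kept a fold over 2, a difference over 100 and a p-value of at most 0.05, and its signed fold change score is negative where the mutant is lower. Its array numbers do not show whether it rests on these 6 arrays.

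Values below 0 (1.85%, none among the 4 genes) were set to 0 and log2(intensity + 16) was fitted with limma 3.58.1 in R 4.3.3 (two-sided, Benjamini-Hochberg over 22746 probe sets, no block). The fit was tested on simulated data. Symbols come from the RefSeq table of TAIR10.1. A probe set was named only through the authors' deposited table and only if unshared. The named genes are the 4 genes, nameable members of the barrier and marker lists, and for each of the 4 the 3 named probe sets of highest r. The genes and lists were chosen with earlier results of these data known. Python 3.11.15, numpy 2.4.6, pandas 2.3.3 and matplotlib 3.10.9 served for the summaries. Precision is limited by 3 arrays per group. Protein and promoter comparisons were not made, as no sequence was used here.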

Additional observations from a re-analysis of the deposited data

How the results depend on the processing

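Of 52 alternative values of the 4 log2 changes, 46 moved by less than the spread between replicates, 6 moved further and 0 changed sign. The 46 include the values with the replicate number as a block, which could not move by construction. They also include the values without 1 array. With 3 arrays per group these could not move by more than that spread, so nothing is read from their part of the count. With 64 added in place of 16 the log2 changes were -1.35 for CASP1, -1.73 for CASPL1D2, -1.17 for CASPL1D1 and 1.22 for CASPL1E2. For CASPL1D2 it was -2.79 with 1 added and -2.82 as the log2 ratio of group means, which follows from its dim mutant signal. Leaving out 1 array gave -1.54 to -1.44 for CASP1, -2.49 to -2.33 for CASPL1D2, -1.29 to -1.20 for CASPL1D1 and 1.32 to 1.45 for CASPL1E2. The number of probe sets called, 2501, was 3779 with array weights (the cause was not tested) and 1190 to 2347 without 1 array (560 to 985 lower and 620 to 1362 higher), with fewer arrays tested. It was 1422 without wild type replicate 2, 1190 without gapcp1gapcp2 replicate 2 and 1197 without gapcp1gapcp2 replicate 3. The 5 nameable barrier genes stayed called lower in each of the settings tried for them, but they had been filtered on this contrast.

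With the replicate number as a block, 1687 probe sets were called (777 lower, against 1167 without it), the 4 log2 changes were equal by construction and the 5 barrier genes stayed called. Array deviations from the genotype means had a correlation of 0.234 between both replicates 1, but of 0.0186 between both replicates 2 and 0.0174 between both replicates 3. For replicates 2 and 3 the best correlation was with another number. The numbers were treated as names, not pairs, because they are not stated to pair arrays.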

Other observations

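For CASPL1D1 the group means in the authors' deposited table fall outside the span of the deposited arrays. The authors' deposited table gives 445 in the mutant and 1116 in wild type, 78.2% and 81.8% of the array means of 569 and 1364. Its fold of wild type over mutant in the authors' deposited table is 2.51, against 2.40 from the arrays. For CASP1, CASPL1D2 and CASPL1E2 both means of the authors' deposited table lie within that span. In all, a group mean falls outside the span for 50 of the 274 probe sets of the authors' deposited table. The cause was not tested.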
